A study of Mus musculus with 58 samples.

Results

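The adipogenic and lipid-handling genes described here are 41 mouse genes, and all 41 were found, by Ensembl identifier, among the 56953 genes of the deposited matrix. They comprise 13 adipogenic transcription regulators, 4 genes of fatty acid uptake and transport, 6 of fatty acid synthesis, 5 of triglyceride synthesis, 7 of the lipid droplet coat and lipolysis, and 6 products of mature adipocytes. Of the 41, 30 had at least 5 reads in more than 3 libraries and were tested. The remaining 11 were below that limit and are given by their reads.

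Adipose stem cells (ASC) are fibroblast-like cells of the adipose stroma that give rise to new adipocytes. During adipogenesis C/EBPβ and C/EBPδ act early, and PPARγ and C/EBPα then switch on the genes that take up, make and store fat. The DPP4+ cells (ASC2) are regarded as an early progenitor pool and the DPP4- cells (ASC1) as closer to committed preadipocytes. Several lipid-handling genes, Cd36, Plin2, Fabp5 and Lpl among them, are also expressed by macrophages, and the fatty acid synthesis genes by mammary epithelium.

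The data are 58 bulk RNA libraries, made with the full-length method Smart-seq3 from CD45-/CD31-/CD34+ cells sorted from inguinal white adipose tissue (iWAT) of C57BL6/J mice. Surgery was done at 4 weeks and tissue was taken at 10 weeks of age, so the question was how loss of testis or ovary changes each population. Per the study's methods, food was withheld for 4 h before tissue was taken. The groups were control males (7 ASC1 and 8 ASC2 libraries), castrated males (8 and 8), control females (8 and 8) and ovariectomized females (3 and 8). The labels give no transgene. The study's methods describe separate mice as the replicates of a group, but the labels do not tie a library to a mouse, and p-values measure the spread between libraries. Surgery removes all gonadal hormones together, and whether the controls had a sham operation is not stated in the sources used here. Values are given as CPM, read counts scaled to a common library total by TMM, and the threshold of the edgeR quasi-likelihood test is an adjusted p of 0.05 over all 12464 genes tested.

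Library totals ran from 106562 to 1421518 reads, and several libraries stood apart from their labels. Xist in male-labelled libraries or Y-linked transcripts in female-labelled ones went against the sex label in 27 of 58 libraries, using a limit of 20 CPM. These were all 8 castrated male ASC1 libraries, 4 of 7 ASC1 and 4 of 8 ASC2 of control males, and 5 of 8 ASC1 and 6 of 8 ASC2 of control females. None of the castrated male ASC2 libraries or of the ovariectomized libraries did so. In the libraries labelled castrated male ASC1, Xist was at 51.9 to 118 CPM and the sum of 4 Y-linked genes at 0 to 4.72 CPM, while those labelled castrated male ASC2 had 0 to 7.99 CPM and 55.9 to 100.1 CPM. Whether labels were exchanged between groups or RNA was admixed was not tested, and every direction below follows the labels, so that what the castration, ovariectomy and sex comparisons contrast is uncertain. The summed ASC2 markers (Dpp4, Cd55, Arl4d, Pi16, Wnt2) separated the population labels, at 24.3 to 441 CPM in the 26 ASC1 libraries and 525 to 6140.4 CPM in the 32 ASC2 libraries. The summed ASC1 markers (Col15a1, G0s2, Cxcl14, Clec11a, Fmo2, Icam1) did not. They ran from 343 to 449 CPM in castrated ASC1 and from 59.5 to 536 CPM in castrated ASC2. These sums also overlapped between populations in both control sexes, and stood apart only in ovariectomized females. The 3 ovariectomized ASC1 libraries, of 188591 to 1114321 reads, had fibroblast markers (Pdgfra, Dcn, Lum, Col1a1, Cd34) at 44926 to 46771 CPM in sum against 3380.1 to 15878 CPM in the other 55. Summed macrophage and leukocyte markers (Cd68, Cd14, Cd163, Adgre1, Csf1r, Lyz2, Ptprc) lay at 43.4 to 92.9 CPM in those 3 and at 558 to 6512 CPM in the rest, although CD45+ cells were gated out, with Adgre1 at 0 in those 3. Mammary epithelium markers (Epcam, Krt8, Krt18, Krt5, Krt14, Elf5) reached 100 CPM in sum in 16 libraries. Results are therefore also given without the libraries against the sex label, and in bulk RNA fewer cells of a type and less RNA per cell cannot be told apart.

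The members covered a wide range of levels (the heat map of group means). Per kilobase of exon, Plin2, the droplet coat protein of cells other than fat cells, was the highest member at a mean of 187 CPM per kb over the 58 libraries. It was followed by Lpl, the lipase that releases fatty acids from lipoproteins, at 84.8, Fabp5 at 70.9, Scd2 at 66.5 and Acly at 49.2 CPM per kb. Lengths are the union of exons in Gencode vM21, which is older than the annotation used for counting, and reads shared by the paralogs Scd1 and Scd2, or by Fabp5 and its retrocopies, are divided by the quantifier, so the split between them is uncertain. Pparg stood at 7.72 and Cebpa at 4.64 CPM per kb. On the CPM scale, 8 of the 30 members tested had a mean of at least 100 CPM, 13 lay between 10 and 100 CPM and 9 below 10 CPM.

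**Figure D1:**
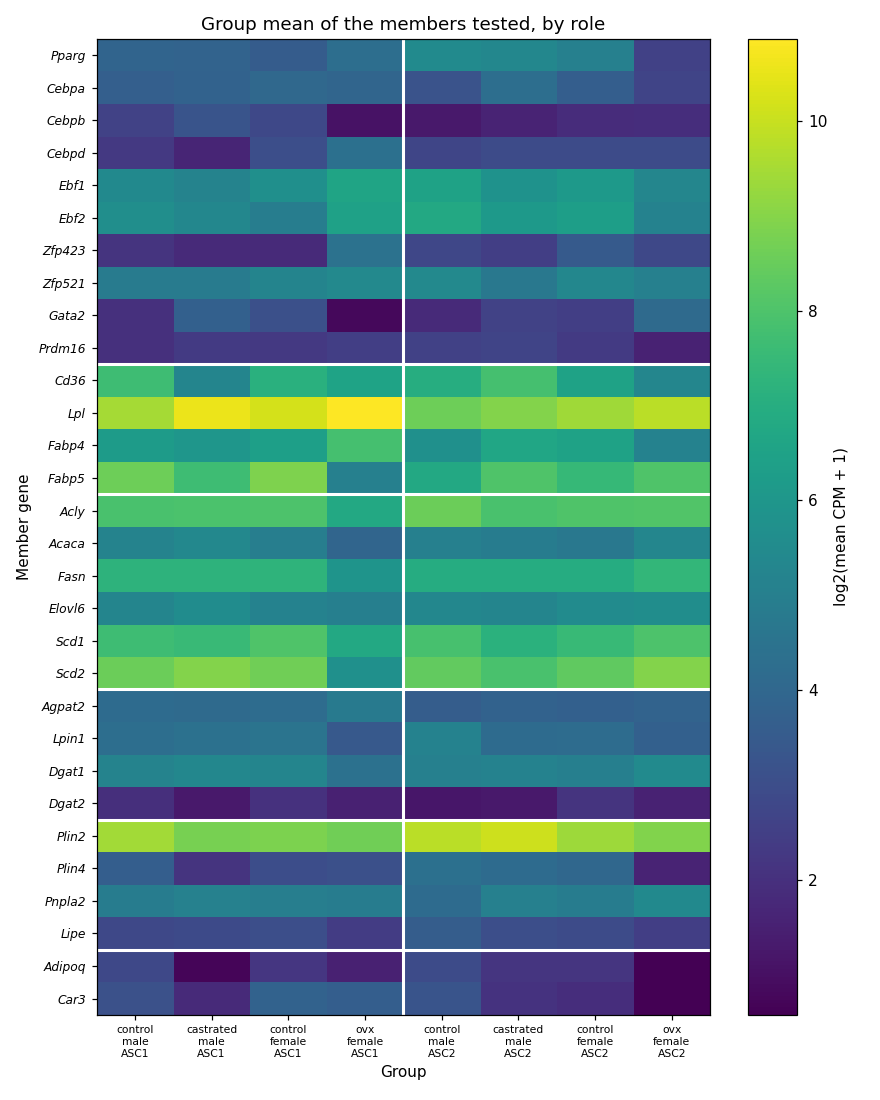
Group means of the 30 members tested, as log2(mean CPM + 1), with members in rows grouped by role and the 8 groups in columns (ovx, ovariectomized; 3 to 8 libraries a group). Each of the 6 fatty acid synthesis rows was dimmest in the ovariectomized ASC1 column, with Scd2 at 52.8 CPM there and 241 CPM or more elsewhere.

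Most genes that define a mature fat cell were near absent. Ucp1 (uncoupling protein of thermogenic fat) had 3 reads in all 58 libraries together, Lep (leptin) 4, Cidea 3, Ppargc1a 2 and Pck1 2. Plin1, which coats the large droplet of fat cells, had 57 reads in 24 libraries, Cidec 33 in 22, Retn (resistin) 44 in 21 and Slc2a4 (the insulin-regulated glucose transporter) 29 in 18. The transcription regulators Klf15 and Gata3 were also below the limit for testing, with 46 and 63 reads. At this depth such levels give no comparison between groups. Adipoq (adiponectin) was just above the limit, with group means from 0.524 CPM in ovariectomized ASC2 to 6.68 CPM in control male ASC2, and its highest library was at 25.5 CPM. Of 8 further adipocyte markers (Adrb3, Acvr1c, Trarg1, Slc7a10, Mrap, Pnpla3, Thrsp, Adig), no more than 2 reached a mean of 5 CPM in any group. Trarg1 had group means of 4.37 CPM (castrated ASC1) to 32.7 CPM (control male ASC2), and Mrap of 0 (ovariectomized ASC1) to 19.4 CPM (control female ASC1). In the edgeR test Trarg1 was lower for castration in ASC1, at -2.69 (adjusted p = 0.00538), and Mrap for ovariectomy in ASC1, at -6.78 (adjusted p = 0.00531). Both also passed between populations in some groups.

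Pparg, the master regulator of adipocyte differentiation, was higher in most ASC2 than ASC1 libraries of control males, castrated males and control females. Its lowest, median and highest level in ASC1 was 11.1, 12.9 and 19.2 CPM in control males, 7.91, 11.2 and 25.1 CPM in castrated males and 6.42, 11.01 and 19.3 CPM in control females, and the 3 ovariectomized libraries had 14.9, 18.6 and 22.9 CPM. In ASC2 it was 15.7, 48.98 and 79.2 CPM in control males, 9.87, 35.6 and 79.8 CPM in castrated males, 0.983, 34.9 and 56.8 CPM in control females and 0, 5.61 and 12.6 CPM in ovariectomized females. The ASC2 medians of the first 3 groups lay above the highest ASC1 library of the same group, and the ovariectomized ASC2 libraries all lay below their ASC1 counterparts. The 2 control female ASC2 libraries without Y-linked transcripts were the lowest of their group, at 0.983 to 2.71 CPM, beside 19.01 to 56.8 CPM in the other 6.

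Cebpa, the partner of PPARγ, had no such split. Group medians lay between 3.94 CPM in ovariectomized ASC2 and 16.9 CPM in castrated ASC2, with 3.47 to 27.9 CPM in control male ASC1, 3.59 to 16.5 CPM in castrated ASC1, 3.21 to 31.2 CPM in control female ASC1, 2.23 to 19.5 CPM in control male ASC2 and 6.34 to 22.2 CPM in control female ASC2. The ovariectomized ASC1 libraries had 4.57, 6.19 and 32.1 CPM. Ranges overlapped in every comparison of these groups. Cebpb and Cebpd, the early C/EBP factors, averaged 3.89 and 6.35 CPM over all libraries, Prdm16, a regulator of thermogenic fat, 3.98 CPM, and Gata2, which restrains preadipocytes, 7.12 CPM. Zfp521, a repressor of adipogenesis, averaged 33.5 CPM.

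Cd36, a fatty acid transporter of the plasma membrane, took separate levels within control male ASC1. In control male ASC1 the lowest, median and highest library had 41.3, 57.5 and 459.7 CPM. The 3 libraries that matched the sex label had 363 to 459.7 CPM and the 4 against it 41.3 to 57.5 CPM, so that the classes did not overlap. Macrophage markers summed to 5249 to 6382 CPM in the first and to 558 to 672 CPM in the second. Castrated ASC1 had 19.96, 37.2 and 56.2 CPM, control female ASC1 38.5, 154 and 219.7 CPM and ovariectomized ASC1 37.2, 82.6 and 158 CPM. In ASC2 the levels were 39.3, 136 and 209 CPM in control males, 87.2, 139 and 589 CPM in castrated males, 51.6, 82.1 and 157 CPM in control females and 0, 41.2 and 65.8 CPM in ovariectomized females. The 5 libraries with the highest macrophage sums, from 5249 to 6512 CPM, were also the 5 highest for Cd36 of all 58.

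Lpl also took separate levels within groups. In ovariectomized ASC2, 4 libraries had 1567 to 1768 CPM and 4 had 85.7 to 124 CPM, with none between. The first had mammary markers at 9.88 to 27.8 CPM in sum and the second at 475 to 1079 CPM. The lowest, median and highest Lpl was 384, 485 and 1113 CPM in control male ASC1, 411, 1843 and 1979 CPM in castrated ASC1 and 224, 1431 and 1559 CPM in control female ASC1, while the ovariectomized ASC1 libraries had 1707, 1864 and 2005 CPM. In ASC2 it was 243, 359.9 and 535 CPM in control males, 120.4, 458 and 999 CPM in castrated males and 277, 455 and 1459 CPM in control females. Castrated ASC1 held 2 libraries at 411 and 497 CPM and 6 at 1688 to 1979 CPM, and control female ASC1 held 2 at 224 and 259 CPM and 6 at 1399 to 1559 CPM. In control male ASC1 the 3 libraries that matched the sex label had 1031 to 1113 CPM and the 4 against it 384 to 485 CPM. What part macrophage or mammary RNA had in these levels was not tested.

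**Figure D2:**
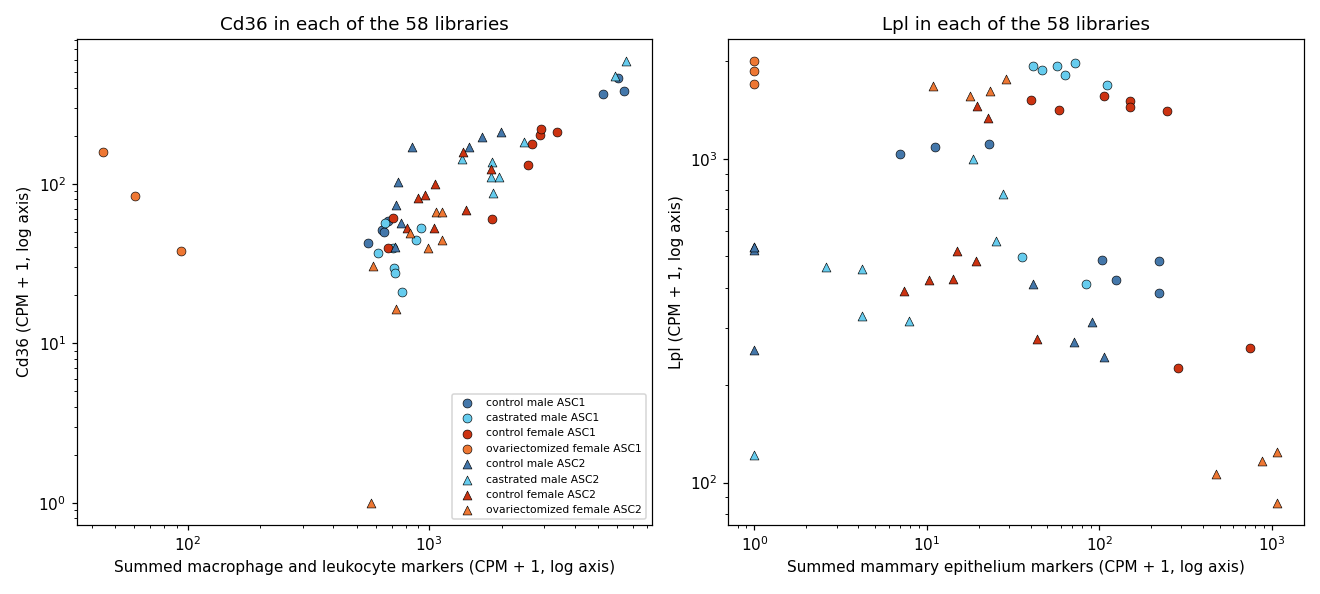
Cd36 against the summed macrophage and leukocyte markers (left) and Lpl against the summed mammary epithelium markers (right), each point a library, CPM + 1 on log axes, circles ASC1 and triangles ASC2. The libraries with the most Cd36 had macrophage sums of 5249 CPM or more, the 3 ovariectomized ASC1 libraries lay apart at sums under 100 CPM, and 4 of the 5 libraries with the least Lpl had mammary sums of at least 475 CPM.

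Plin2 was expressed in every library. It had 428, 732 and 918 CPM in control male ASC1, 364, 431 and 512 CPM in castrated ASC1, 335, 462 and 531 CPM in control female ASC1 and 339, 421 and 422 CPM in ovariectomized ASC1. In ASC2 it had 531, 858 and 1378 CPM in control males, 808, 959.8 and 2002 CPM in castrated males, 279.6, 671 and 1057 CPM in control females and 299.7, 429 and 822 CPM in ovariectomized females. Every castrated ASC2 library lay above every castrated ASC1 library, and the other groups overlapped between populations. Fabp4, the fatty acid carrier of fat cells, ran at 39.9, 47.95 and 135 CPM, 32.3, 66.3 and 76.6 CPM and 22.04, 98.5 and 118 CPM in ASC1 of control males, castrated males and control females, and at 111, 248 and 319 CPM in ovariectomized ASC1. In ASC2 of control males, castrated males, control females and ovariectomized females it ran at 12.7, 40.5 and 152 CPM, 54.2, 111 and 136 CPM, 36.4, 101 and 113 CPM and 7.69, 34.6 and 57.4 CPM. The 2 highest Fabp4 libraries of all 58 were ovariectomized ASC1.

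**Figure D3:**
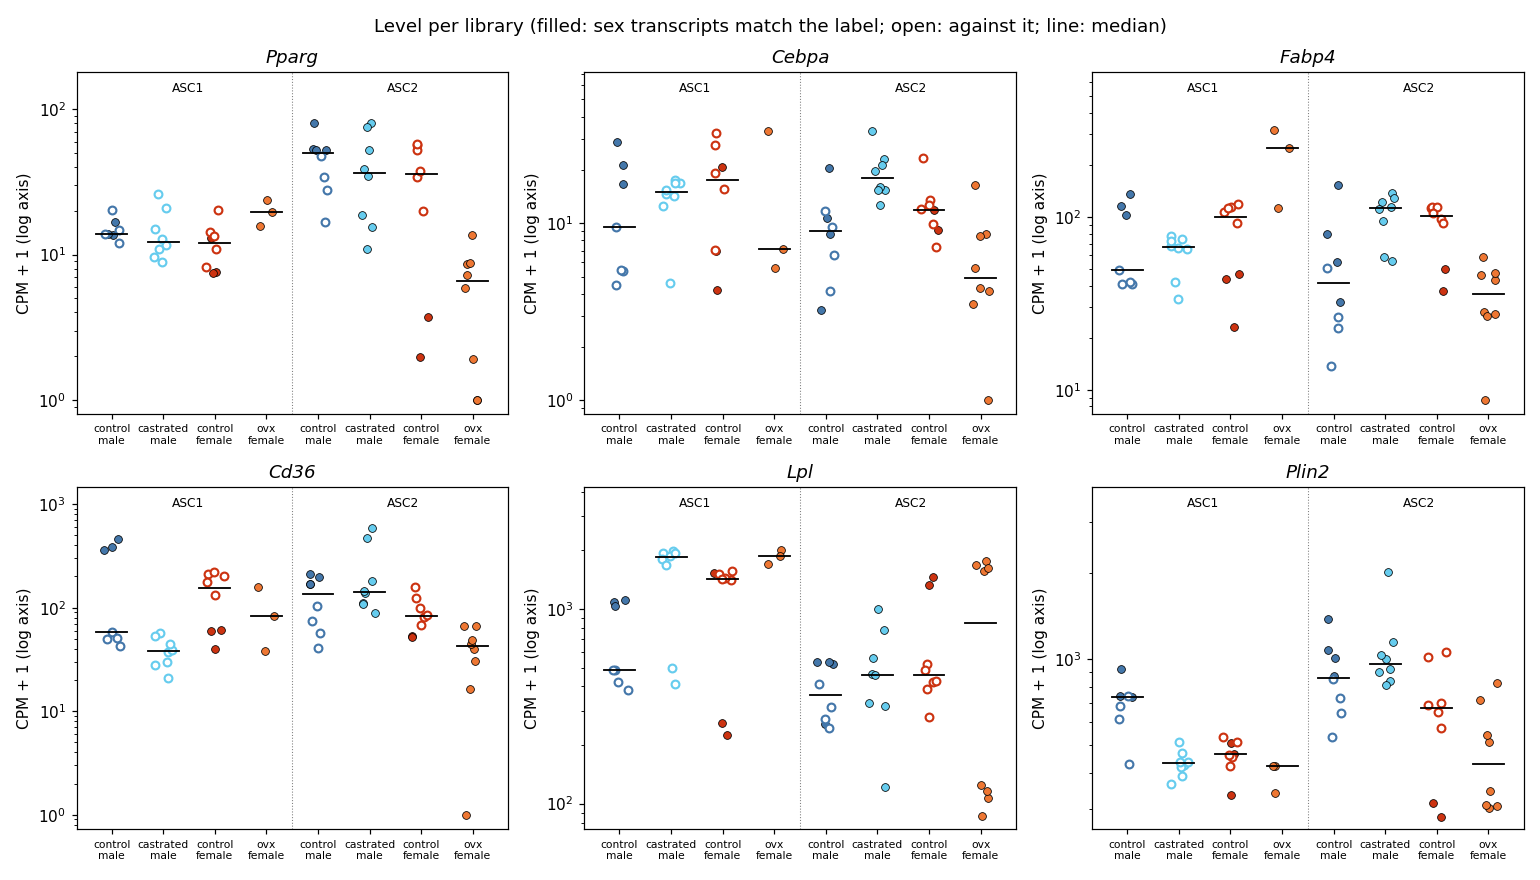
Pparg, Cebpa, Fabp4, Cd36, Lpl and Plin2 in each library (CPM + 1, log axis) by group, with ASC1 left and ASC2 right of the dotted line. Filled points matched the sex label, open points went against it, and lines are medians; Pparg was lowest in ovariectomized ASC2 and in 2 control female ASC2 libraries, and Lpl and Cd36 split into separate levels within groups.

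The promoters of 5 members that changed in the comparisons below are shown because each carries, in its window from 250 bases before to 50 after the start, a match to a motif of the C/EBP, EBF or nuclear receptor families, to which members of the list belong. Sequences and coordinates are RefSeq's for GRCm38.p6, 5′ to 3′ on the gene's strand, with matches in capitals. The motifs, searched on both strands, were TTNNGCAA for C/EBP, CCCNNGGG for EBF (its own reverse complement) and AGGTCA, the core element that PPARγ shares with other nuclear receptors. They occurred in 10.8%, 13.7% and 16.3% of all 32851 promoters of the table. Of the members, 28 with 35 promoters were counted, of which 5, 9 and 9 held the respective motif. These member counts leave out a chromosome that the shares over all promoters include. Pparg (chr6:115421816-115422115, plus strand) is shown at the start, of 3 listed, that held a C/EBP match. The others are Plin4 (chr17:56109733-56110032), Cd36 (chr5:17835847-17836146), Acly (chr11:100527951-100528250) and Lpin1 (chr12:16610917-16611216), all on the minus strand.
Pparg: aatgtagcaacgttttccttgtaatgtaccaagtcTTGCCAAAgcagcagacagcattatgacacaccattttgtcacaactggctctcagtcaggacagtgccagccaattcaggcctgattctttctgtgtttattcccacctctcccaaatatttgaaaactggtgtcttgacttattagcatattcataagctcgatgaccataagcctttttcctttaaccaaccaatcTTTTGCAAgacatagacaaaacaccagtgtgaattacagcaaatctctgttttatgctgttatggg
Plin4: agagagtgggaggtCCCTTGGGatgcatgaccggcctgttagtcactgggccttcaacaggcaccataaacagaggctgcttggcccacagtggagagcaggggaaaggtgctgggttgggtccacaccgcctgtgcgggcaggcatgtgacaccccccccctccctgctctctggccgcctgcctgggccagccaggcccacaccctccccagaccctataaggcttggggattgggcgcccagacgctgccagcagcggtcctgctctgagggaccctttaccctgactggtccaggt
Cd36: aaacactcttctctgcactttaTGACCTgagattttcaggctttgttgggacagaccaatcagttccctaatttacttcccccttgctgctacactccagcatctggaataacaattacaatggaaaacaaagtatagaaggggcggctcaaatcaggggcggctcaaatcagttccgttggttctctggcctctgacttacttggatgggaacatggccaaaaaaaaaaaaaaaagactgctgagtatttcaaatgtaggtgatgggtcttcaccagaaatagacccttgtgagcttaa
Acly: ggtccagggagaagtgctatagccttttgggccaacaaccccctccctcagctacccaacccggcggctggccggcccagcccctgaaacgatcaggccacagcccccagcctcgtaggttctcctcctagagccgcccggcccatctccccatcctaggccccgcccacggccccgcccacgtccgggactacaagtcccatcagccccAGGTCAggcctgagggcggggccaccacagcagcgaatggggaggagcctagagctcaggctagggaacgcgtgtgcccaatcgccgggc
Lpin1: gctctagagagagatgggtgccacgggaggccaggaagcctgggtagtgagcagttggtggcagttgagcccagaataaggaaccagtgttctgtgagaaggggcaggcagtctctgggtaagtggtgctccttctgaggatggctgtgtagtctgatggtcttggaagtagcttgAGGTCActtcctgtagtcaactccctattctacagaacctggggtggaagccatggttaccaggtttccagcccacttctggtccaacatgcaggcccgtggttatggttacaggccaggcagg

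The Pparg window held 2 C/EBP matches, with first bases at -215 and -16 from the start, and the Plin4 window 1 EBF match at -236. The core element began at -228 in Cd36, at -40 in Acly and at -74 in Lpin1. A match is a description of these letters, and the counts here are per gene, so they do not separate transcripts from different Pparg starts.

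Libraries labelled castrated male ASC1, which carried Xist and few Y-linked reads, had less Cd36 than control male ASC1, with no other call among the members. Cd36 was 37.6 ± 12.5 CPM (SD, n = 8) in castrated and 200.4 ± 191 CPM (SD, n = 7) in control males, a 5.14-fold difference (log2 fold change -2.36, SE 0.47, adjusted p = 0.00128). The ranges, 19.96 to 56.2 CPM and 41.3 to 459.7 CPM, overlapped. Thus 1 of 30 members tested passed, 0 higher and 1 lower, where 2.36% of all genes tested did (1.06% higher, 1.30% lower; median log2 fold change -0.031 over the 30 members tested and -0.010 over all genes tested). The 4 control libraries against the sex label overlapped the castrated range (41.3 to 57.5 CPM), and the 3 that matched it did not (363 to 459.7 CPM). The macrophage sum was 614 to 922 CPM in castrated libraries and 5249 to 6382 CPM in those 3 controls. Of the ASC2 markers 1 of 5 was called higher, Dpp4 at 1.87 (adjusted p = 0.0195). Of the ASC1 markers 1 of 6 was called lower, Cxcl14 at -1.29 (adjusted p = 0.0363). Fibroblast markers were called lower for 2 of 5, Cd34 at -1.91 (adjusted p = 2.48e-04) and Dcn at -0.79 (adjusted p = 0.0388). The part of these shifts was not tested. Without the libraries high in mammary markers, which leaves those 3 controls, Cd36 was at -3.30 (adjusted p = 4.40e-06) and 3 members passed, with Fabp5 at -1.76 (adjusted p = 0.00423) and Scd2 at 1.14 (adjusted p = 0.0192). All 8 libraries labelled castrated had Xist and a median Y-linked sum of 0.565 CPM, so the comparison could not be made without libraries against the label, and castration and sex transcripts cannot be told apart in it. Plin2 missed the threshold at -0.69 (adjusted p = 0.0837).

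Among other genes of the pathways, 2 of 22 further adipogenesis regulators and 1 of 31 further lipid enzymes and carriers passed in ASC1. Ccn5, a secreted WNT target that holds back PPARγ, fell with a log2 fold change of -1.83 (adjusted p = 0.00291), and Nr1h3 (LXRα, a sterol-sensing receptor) fell with -1.13 (adjusted p = 0.0334). Gpam, which starts glycerolipid synthesis, rose with 2.10 (adjusted p = 0.00348).

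Libraries labelled castrated male ASC2 had less Acly, Lpin1 and Ebf2 and more Fabp5 than those labelled control male ASC2, 4 of 8 of which went against the sex label. Acly, which makes cytosolic acetyl-CoA for fatty acid synthesis, had a lowest, median and highest level of 203, 236 and 279 CPM in castrated and 288, 378 and 457 CPM in control males. These ranges did not overlap, as for 1 of 30 members and 0.586% of all genes, and the level fell 1.56-fold (log2 fold change -0.64, SE 0.13, adjusted p = 9.51e-04). Lpin1, the phosphatidate phosphatase of triglyceride synthesis, had 5.13, 17.8 and 26.8 CPM against 12.7, 35.6 and 50.2 CPM (log2 fold change -1.003, SE 0.29, adjusted p = 0.0262). Ebf2, a factor of adipocyte precursors, had 43.3, 65.9 and 97.02 CPM against 76.3, 94.4 and 212 CPM (log2 fold change -0.70, SE 0.21, adjusted p = 0.0296). Ranges of both overlapped between castrated and control libraries. Fabp5 rose from 22.3, 93.9 and 208 CPM to 98.4, 206 and 688 CPM (log2 fold change 1.25, SE 0.36, adjusted p = 0.0253), again with overlap. The macrophage sum was 717 to 1989.8 CPM in control and 1368 to 6512 CPM in castrated libraries, with 3 of 6 markers called higher. The sum of endothelial markers (Pecam1, Cdh5, Kdr, Cldn5, Tie1, Ptprb, Gpihbp1) was 21.2 to 53.2 CPM and 68.7 to 123 CPM without overlap, with 5 of 7 markers called higher, among them Ptprb at 2.19 (adjusted p = 0.048) and Kdr at 1.68 (adjusted p = 0.0162). The fibroblast marker Dcn was lower at -1.37 (adjusted p = 3.17e-05). The part of these cell types in the member differences was not tested.

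Altogether 4 of 30 members passed in ASC2, 1 higher and 3 lower, against 6.96% of all genes (2.65% higher, 4.32% lower; median log2 fold change -0.072 over the 30 members tested and 0.0044 over all genes tested). Without the 4 control libraries against the sex label, Acly and Ebf2 kept their calls at -0.69 (adjusted p = 0.0288) and -0.92 (adjusted p = 0.0275). Car3 joined them at -2.05 (adjusted p = 0.0407), and Lpin1 and Fabp5 missed the threshold at -1.21 (adjusted p = 0.0519) and 1.37 (adjusted p = 0.0618). In a fit of only these groups, Ebf2, Lpin1 and Fabp5 missed the threshold as well, at adjusted p = 0.102, 0.0824 and 0.0831.  Scd1, Fabp4, Pnpla2 (adipose triglyceride lipase) and Cebpa did not pass, at -0.72 (adjusted p = 0.0703), 0.91 (adjusted p = 0.0829), 0.85 (adjusted p = 0.0829) and 1.07 (adjusted p = 0.0897). Of the other adipogenesis regulators 2 of 22 passed, Klf4 at -1.45 (adjusted p = 0.0217) and Egr2 at -1.08 (adjusted p = 0.034), both immediate-early transcription factors, and of the other lipid genes 1 of 31, the acyl-CoA synthetase Acsl4 at -0.95 (adjusted p = 0.03).

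By the labels, the castration effect differed between the populations for 3 of 30 members, against 2.41% of all genes (1.53% with a higher and 0.883% with a lower effect in ASC2). For Cd36 the ASC2 effect minus the ASC1 effect was 3.22 in log2 units (SE 0.63, adjusted p = 0.00138), with -2.36 (adjusted p = 0.00128) in ASC1 and 0.86 (adjusted p = 0.22) in ASC2. Fabp5 differed by 2.19 (SE 0.52, adjusted p = 0.00905) and Acly by -0.70 (SE 0.19, adjusted p = 0.027). Fabp5 in ASC1 was -0.94 (adjusted p = 0.2) and Acly 0.064 (adjusted p = 0.909). The macrophage sum had medians of 717 CPM in castrated and 672 CPM in control ASC1, with highest libraries at 922 and 6382 CPM, and of 1887 and 805 CPM in ASC2. The ASC2 marker Dpp4 differed too, by -2.87 (adjusted p = 0.00194). The part of either was not tested. Among the other lipid genes Gpam differed, by -2.37 (adjusted p = 0.0295).

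**Figure D4:**
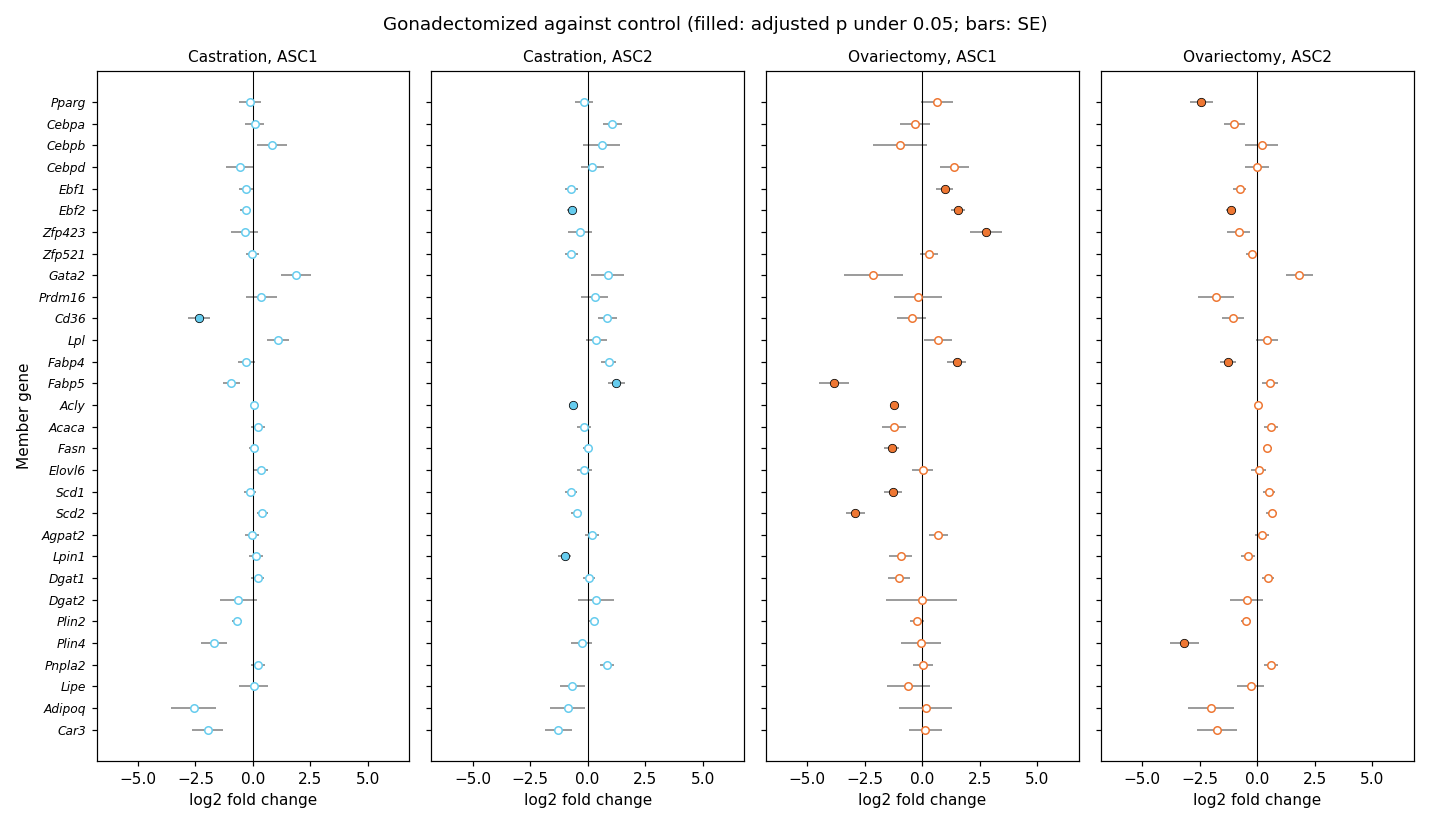
Log2 fold change with SE of the 30 members tested, gonadectomized against control, in each population. Filled points passed the edgeR test at an adjusted p under 0.05. These were 1 member after castration in ASC1 (2.36% of all genes passed) and 4 in ASC2 (6.96%). After ovariectomy 9 members passed in ASC1 (34.8% of all genes) and 4 in ASC2 (2.09%).

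In ovariectomized ASC1 4 of the 6 fatty acid synthesis genes were lower and the precursor factors Ebf1, Ebf2 and Zfp423 higher than in control female ASC1. The 3 ovariectomized libraries had Scd2, a stearoyl-CoA desaturase, at 49.1, 49.5 and 59.7 CPM, against a lowest, median and highest of 321, 398 and 452 CPM in controls (log2 fold change -2.92, SE 0.41, adjusted p = 7.37e-08). Fasn, the fatty acid synthase, had 36.7, 68.1 and 70.9 CPM against 109.8, 142 and 220.4 CPM (log2 fold change -1.34, SE 0.32, adjusted p = 8.65e-04). For both, and for Acly and Scd1, no ovariectomized library reached the lowest control. Acly was at 78.02, 104 and 149 CPM against 209, 263 and 295 CPM (log2 fold change -1.21, SE 0.20, adjusted p = 3.50e-06). Scd1 was at 93.7, 111 and 119 CPM against 140.3, 291 and 367 CPM (log2 fold change -1.26, SE 0.39, adjusted p = 0.00879). So 4 of the 6 synthesis genes fell and 0 rose, where 22.1% of all genes tested fell and 34.8% passed in all, and Acaca (acetyl-CoA carboxylase) and Elovl6 did not pass. Mammary markers moved with them, at 0 in sum in the 3 ovariectomized libraries and 39.4 to 745 CPM in controls, with 3 of 4 called lower (Krt8 at -9.15 (adjusted p = 0.00604)). Without the libraries high in mammary markers, which leaves 2 controls, Scd2, Acly, Fasn and Scd1 passed at -2.92 (adjusted p = 1.58e-06), -1.42 (adjusted p = 3.61e-05), -1.28 (adjusted p = 0.0205) and -1.41 (adjusted p = 0.0239).

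Fabp5 showed the largest change of the members in this comparison, at 18.6, 32.00 and 45.9 CPM against 76.1, 531 and 789 CPM (log2 fold change -3.84, SE 0.67, adjusted p = 6.81e-06), and its ranges did not overlap. Fabp4 was higher, with overlap, at 111, 248 and 319 CPM against 22.04, 98.5 and 118 CPM (log2 fold change 1.48, SE 0.42, adjusted p = 0.00481). Ebf2 was nearly equal in the 3 ovariectomized libraries, at 86.7, 86.9 and 87.2 CPM, above all controls (18.3, 25.97 and 58.1 CPM; log2 fold change 1.54, SE 0.30, adjusted p = 5.90e-05). Zfp423, a factor of committed preadipocytes, had 18.4, 19.4 and 24.8 CPM against 0, 2.39 and 6.01 CPM (log2 fold change 2.77, SE 0.69, adjusted p = 0.00134), also without overlap. Ebf1 passed with overlapping ranges, 55.7, 64.3 and 168 CPM against 6.56, 52.6 and 75.7 CPM (log2 fold change 0.97, SE 0.37, adjusted p = 0.0348).

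These calls stood among many, because 9 of 30 members passed, 4 higher and 5 lower, against the 34.8% of all genes tested (12.7% higher, 22.1% lower; median log2 fold change -0.13 over the 30 members tested and -0.34 over all genes tested), a share no higher than the background. Ranges did not overlap for 8 members, 7 of them called and the other Lpl, and for 20.9% of all genes. The ovariectomized group is 3 libraries whose fibroblast and macrophage markers lay outside the range of all other libraries and whose endothelial markers were called lower for 4 of 7, and their part cannot be told apart from that of ovariectomy. Without library L, the deepest of the 3, Fabp4 and Scd1 missed the threshold at 1.10 (adjusted p = 0.134) and -1.17 (adjusted p = 0.0677). Without the 5 control libraries against the sex label, Zfp423, Ebf2 and Scd1 missed it at 2.40 (adjusted p = 0.0717), 1.01 (adjusted p = 0.0591) and -0.98 (adjusted p = 0.129), and Acly, Fasn, Scd2, Fabp5, Fabp4, Ebf1 and Cebpd passed. Of the other adipogenesis regulators 10 of 22 passed, 8 higher and 2 lower, led by Klf2 at 2.92 (adjusted p = 3.35e-04), the insulin signalling adaptor Irs1 at 2.65 (adjusted p = 2.26e-08) and Klf4 at 2.38 (adjusted p = 9.62e-04). Of the other lipid genes 16 of 31 passed, 8 higher and 8 lower, with Acsl3 at -2.97 (adjusted p = 0.0366), the desaturase Fads2 at -2.37 (adjusted p = 9.38e-05) and Mgll (monoglyceride lipase) at 2.16 (adjusted p = 0.00135).

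Libraries labelled ovariectomized female ASC2 had less Pparg, Ebf2, Plin4 and Fabp4 than those labelled control female ASC2, 6 of 8 of which carried Y-linked transcripts. Pparg fell 5.36-fold, from 32.1 ± 22.6 CPM (SD, n = 8) to 5.01 ± 4.48 CPM (SD, n = 8) (log2 fold change -2.42, SE 0.49, adjusted p = 0.00196). Its levels, 0 to 12.6 CPM after ovariectomy and 0.983 to 56.8 CPM in controls, overlapped through the 2 low control libraries. Plin4, a droplet coat protein and PPARγ target, had a lowest, median and highest of 0, 0.823 and 8.57 CPM against 0, 16.2 and 28.01 CPM (log2 fold change -3.16, SE 0.64, adjusted p = 0.00195). Ebf2 had 17.1, 31.02 and 61.8 CPM against 52.9, 81.5 and 131 CPM (log2 fold change -1.14, SE 0.22, adjusted p = 0.00134), and Fabp4 7.69, 34.6 and 57.4 CPM against 36.4, 101 and 113 CPM (log2 fold change -1.25, SE 0.35, adjusted p = 0.0409). All 4 overlapped between the groups. Of 30 members, 0 passed higher and 4 lower, against 2.09% of all genes (0.650% higher, 1.44% lower). The median log2 fold change was -0.25 over the 30 members tested and 0.0019 over all genes tested. Gata2 missed the threshold at 1.84 (adjusted p = 0.0957). Markers of the population moved with the members, with 3 of 5 ASC2 markers called lower (Cd55 at -1.55 (adjusted p = 0.00593), Dpp4 at -1.42 (adjusted p = 0.0128), Wnt2 at -1.32 (adjusted p = 0.00734)) and 3 of 5 fibroblast markers (Dcn at -0.98 (adjusted p = 0.00505), Lum at -0.87 (adjusted p = 0.0291)). Mammary markers were called higher for 4 of 4. The ASC2 marker sum was 525 to 3045 CPM after ovariectomy and 1354 to 6140.4 CPM in controls, and the part of these shifts was not tested.

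None of the 4 calls held without the control libraries against the sex label, which left 2 of 8. Pparg then turned to 1.62 (adjusted p = 0.985), Plin4 was -0.48 (adjusted p = 1), Ebf2 -0.86 (adjusted p = 0.788) and Fabp4 -0.19 (adjusted p = 1), 1 of 30 members had an unadjusted p under 0.05, and 3 of all genes passed. In the 2 controls left, Pparg was at 0.983 to 2.71 CPM, Plin4 at 0 to 3.93 CPM and Fabp4 at 36.4 to 48.9 CPM, within the ovariectomized ranges, while Ebf2 was at 52.9 to 77.7 CPM, 1 of the 2 above the ovariectomized range. Without the 4 ovariectomized libraries high in mammary markers, Pparg, Plin4 and Ebf2 kept their calls at -2.62 (adjusted p = 0.0164), -3.93 (adjusted p = 0.00621) and -1.32 (adjusted p = 0.00425), Fabp4 lost it at -0.89 (adjusted p = 0.192), and 9 members passed. In that edgeR fit Scd2, Gata2, Lpl and Scd1 passed higher, at 1.10 (adjusted p = 0.00573), 2.38 (adjusted p = 0.0222), 1.33 (adjusted p = 0.0352) and 0.95 (adjusted p = 0.0403). Plin2 and Prdm16 passed lower, at -1.06 (adjusted p = 0.0186) and -4.56 (adjusted p = 0.0257). Of the other adipogenesis regulators 3 of 22 passed, all lower, with Klf4 at -1.71 (adjusted p = 0.0143), Ccn5 at -1.59 (adjusted p = 0.0118) and Klf6 at -0.70 (adjusted p = 0.04). Of the 31 other lipid genes 0 passed the edgeR test, and 6 had an unadjusted p under 0.05.

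By the labels, castration and ovariectomy had different effects in ASC2 on 1 of 30 members, Fabp4, against 0.602% of all genes (0.233% higher, 0.369% lower). Its difference was 2.16 on the log2 scale (SE 0.48, adjusted p = 0.016), from 0.91 (adjusted p = 0.0829) after castration and -1.25 (adjusted p = 0.0409) after ovariectomy. Without the libraries against the sex label the difference was 0.54 (adjusted p = 0.945). Without those high in mammary markers Fabp4 was at 1.70 (adjusted p = 0.0591) and 5 other members passed, Scd2 at -1.59 (adjusted p = 0.00465), Acly at -0.94 (adjusted p = 0.00663), Scd1 at -1.71 (adjusted p = 0.00867), Plin2 at 1.33 (adjusted p = 0.0315) and Plin4 at 3.71 (adjusted p = 0.0389). DESeq2, and edgeR with no count filter, each called 6 members. Mammary markers differed in the same test for 3 of 4. Pparg and Plin4 differed by 2.25 (adjusted p = 0.0694) and 2.90 (adjusted p = 0.0619). In castrated ASC2, Pparg was 39.9 ± 26.7 CPM (SD, n = 8) and Plin4 17.1 ± 5.79 CPM (SD, n = 8), against 44.6 ± 19.4 CPM (SD, n = 8) and 19.8 ± 11.4 CPM (SD, n = 8) in control males, and neither passed.

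Acly and Lpin1 were higher in ASC2 labelled control male than in ASC2 labelled control female, and no member passed in ASC1. Between the labelled sexes of ASC1, Xist and the Y-linked genes did not pass either, with 0 of 5 called and 0 at an unadjusted p under 0.05. In ASC1, 0 of 30 members passed the edgeR test, 2 had an unadjusted p under 0.05, and 0.289% of all genes passed (0.136% higher in males, 0.152% lower; median log2 fold change -0.11 over the 30 members tested and 0.013 over all genes tested). In ASC2, 2 passed, both higher in males, against 6.50% of all genes (3.63% higher, 2.87% lower; median log2 fold change 0.051 over the 30 members tested and -0.0022 over all genes tested). Acly had a lowest, median and highest of 288, 378 and 457 CPM in males and 234, 258 and 304 CPM in females (log2 fold change 0.50, SE 0.13, adjusted p = 0.0111), and Lpin1 12.7, 35.6 and 50.2 CPM and 5.87, 19.97 and 25.6 CPM (log2 fold change 0.93, SE 0.29, adjusted p = 0.0386). Ranges overlapped for both. Without the libraries against the sex label the 2 differences were 0.37 (adjusted p = 0.547) and 0.74 (adjusted p = 0.533), and 3 other members passed, Pparg at 4.94 (adjusted p = 0.00223), Plin4 at 3.46 (adjusted p = 0.0216) and Plin2 at 1.87 (adjusted p = 0.00889), all higher in the 4 male than in the 2 female libraries left. In ASC1, Cd36 passed without those libraries, at 2.98 (adjusted p = 0.0115), and the macrophage sum was 5249 to 6382 CPM in the 3 male libraries left. In a fit of only the groups compared, Acly and Lpin1 missed in ASC2, at adjusted p = 0.0682 and 0.0741. The sex difference itself differed between ASC2 and ASC1 for 0 of 30 members by edgeR, 1 by DESeq2 and 4 at an unadjusted p under 0.05, where 0.128% of all genes passed (0.0642% with a higher and 0.0642% with a lower difference in ASC2). Of the other regulators Egr2 passed in ASC2, at 1.06 (adjusted p = 0.0374).

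**Figure D5:**
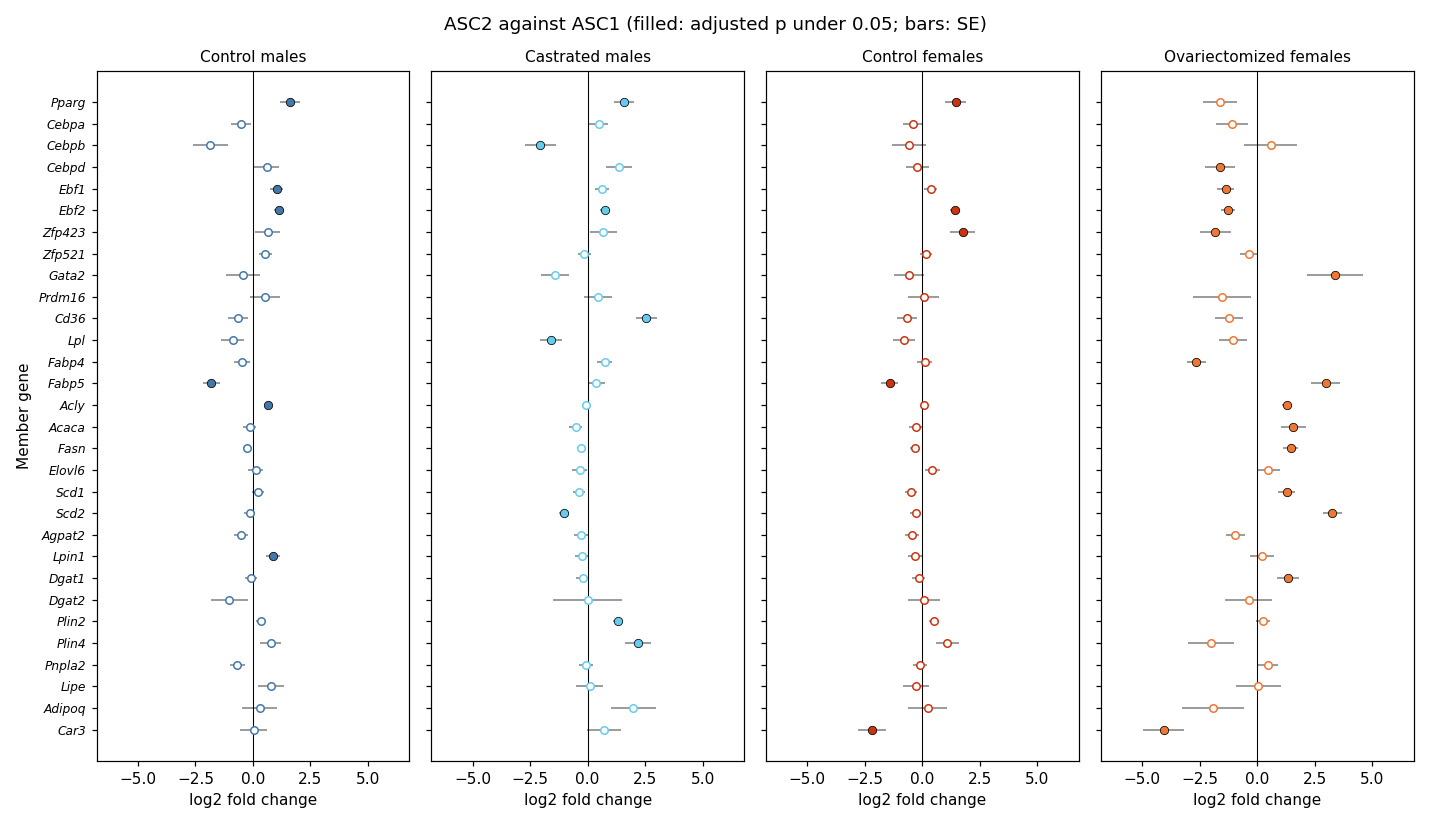
Log2 fold change with SE of the 30 members tested, ASC2 against ASC1, in control males, castrated males, control females and ovariectomized females. Filled points passed the edgeR test; Pparg and Ebf2 passed on the ASC2 side in the first 3 comparisons, and in ovariectomized females Ebf2 passed on the ASC1 side and Pparg did not pass.

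ASC2 of control males had more Pparg, Ebf1, Ebf2, Acly and Lpin1 and less Fabp5 than ASC1. Ebf2 had a lowest, median and highest of 76.3, 94.4 and 212 CPM in ASC2 and 39.98, 49.7 and 59.7 CPM in ASC1 (log2 fold change 1.13, SE 0.22, adjusted p = 2.44e-04), and its ranges did not overlap. Neither did those of Acly, 288, 378 and 457 CPM against 180.1, 244 and 275 CPM (log2 fold change 0.65, SE 0.14, adjusted p = 6.55e-04). Pparg was 3.07-fold higher in ASC2 (44.6 ± 19.4 CPM (SD, n = 8) against 14.04 ± 2.65 CPM (SD, n = 7); log2 fold change 1.62, SE 0.43, adjusted p = 0.00796). Ebf1 had 35.05, 65.9 and 196 CPM against 30.6, 37.8 and 63.7 CPM and passed at 1.02 (adjusted p = 0.0124), Lpin1 had 12.7, 35.6 and 50.2 CPM against 13.1, 17.8 and 26.6 CPM and passed at 0.88 (adjusted p = 0.0435), and Fabp5, 22.3, 93.9 and 208 CPM against 137, 262 and 828 CPM, at -1.81 (adjusted p = 5.22e-04). These 4 overlapped between the populations, and ranges stood apart for 2 of 30 members and 2.28% of all genes. In all 6 of 30 members passed, 5 higher and 1 lower, against 12.2% of all genes (6.88% higher, 5.30% lower; median log2 fold change 0.072 over the 30 members tested and -0.015 over all genes tested). Without the 8 libraries against the sex label, Pparg, Ebf2, Acly and Fabp5 passed at 2.06 (adjusted p = 0.0225), 1.39 (adjusted p = 0.0109), 0.85 (adjusted p = 0.0348) and -2.69 (adjusted p = 0.00182), and Ebf1 and Lpin1 missed at 1.13 (adjusted p = 0.137) and 0.996 (adjusted p = 0.217). Without the libraries high in mammary markers Pparg, Ebf1 and Lpin1 missed, at 1.73 (adjusted p = 0.0745), 0.87 (adjusted p = 0.198) and 0.79 (adjusted p = 0.206), and Cd36, Lpl and Pnpla2 passed, lower in ASC2, at -1.58 (adjusted p = 0.0156), -1.41 (adjusted p = 0.0254) and -1.33 (adjusted p = 0.0301). Macrophage markers were called lower in ASC2 for 2 of 6, Lyz2 at -1.45 (adjusted p = 0.0124) and Csf1r at -0.98 (adjusted p = 0.0221), with sums of 717 to 1989.8 CPM in ASC2 and 558 to 6382 CPM in ASC1, and endothelial Gpihbp1 was lower at -1.43 (adjusted p = 0.00875). Their part was not tested.

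Of the other adipogenesis regulators 7 of 22 passed in control males, 6 higher and 1 lower in ASC2. Wnt10b, a WNT ligand that blocks adipogenesis, differed by 4.14 (adjusted p = 1.97e-05), Dlk1 (preadipocyte factor 1) by 3.00 (adjusted p = 0.0106) and Klf4 by 2.32 (adjusted p = 2.44e-04). Of the other lipid genes 6 of 31 passed, 2 higher and 4 lower. Mgll was higher at 2.22 (adjusted p = 5.31e-05), and G0s2, an inhibitor of adipose triglyceride lipase, and the fatty acid transporter Slc27a1 were lower at -2.01 (adjusted p = 0.0158) and -1.09 (adjusted p = 0.0152).

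ASC2 of control females likewise had more Pparg and Ebf2, and also more Zfp423, and less Fabp5 and Car3. Ebf2 had 52.9, 81.5 and 131 CPM in ASC2 and 18.3, 25.97 and 58.1 CPM in ASC1 (log2 fold change 1.42, SE 0.23, adjusted p = 7.46e-06). Pparg was 32.1 ± 22.6 CPM (SD, n = 8) against 10.9 ± 4.36 CPM (SD, n = 8) (log2 fold change 1.44, SE 0.45, adjusted p = 0.0382). Car3, the carbonic anhydrase of fat cells, had 0, 3.31 and 4.75 CPM against 5.94, 9.82 and 33.8 CPM (log2 fold change -2.18, SE 0.61, adjusted p = 0.017) and was the 1 member of 30 whose ranges did not overlap, where 1.13% of all genes did not. Zfp423 had 3.17, 9.55 and 20.2 CPM against 0, 2.39 and 6.01 CPM and passed at 1.75 (adjusted p = 0.0413). Fabp5 had 69.7, 171 and 251 CPM against 76.1, 531 and 789 CPM and passed at -1.42 (adjusted p = 0.00695), and both overlapped. The 5 of 30 members, 3 higher and 2 lower, compare with 6.11% of all genes (3.54% higher, 2.58% lower; median log2 fold change -0.19 over the 30 members tested and 0.0019 over all genes tested). Without the libraries against the sex label no member passed, with 2 at an unadjusted p under 0.05, Pparg turned to -2.17 (adjusted p = 0.468) and Ebf2 was 0.61 (adjusted p = 0.641). Without those high in mammary markers Ebf2 and Fabp5 passed, at 1.59 (adjusted p = 0.0491) and -1.64 (adjusted p = 0.0485), and Pparg, Zfp423 and Car3 missed the threshold. Mammary markers were called lower in ASC2 for 3 of 4 (Krt14 at -7.56 (adjusted p = 8.56e-04), Krt8 at -4.09 (adjusted p = 9.31e-04), Krt18 at -3.05 (adjusted p = 0.00604)). The macrophage sum was 811 to 1805 CPM in ASC2 and 674 to 3371 CPM in ASC1. ASC1 libraries E and F, with sums of 674 and 707 CPM, had Fabp5 at 183 and 76.1 CPM. The other ASC1 libraries had sums of at least 1824 CPM and Fabp5 at 420 CPM or more. The part of mammary or macrophage RNA was not tested. Of the other regulators 6 of 22 passed, all higher in ASC2, with Wnt10b at 5.15 (adjusted p = 2.17e-06), Klf4 at 2.74 (adjusted p = 1.64e-05) and Klf2 at 2.19 (adjusted p = 0.00307), and of the other lipid genes 2 of 31, Mgll at 2.84 (adjusted p = 5.12e-07) and G0s2 at -2.28 (adjusted p = 0.0013).

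In libraries labelled castrated male the populations differed in Plin2, Cd36, Scd2 and 5 further members. Plin2 was 1079.8 ± 388 CPM (SD, n = 8) in ASC2 and 430.4 ± 45.4 CPM (SD, n = 8) in ASC1 (log2 fold change 1.33, SE 0.22, adjusted p = 2.01e-05), Cd36 228 ± 191 CPM (SD, n = 8) and 37.6 ± 12.5 CPM (SD, n = 8) (log2 fold change 2.56, SE 0.46, adjusted p = 1.18e-04), and Scd2 241 ± 70.7 CPM (SD, n = 8) and 493.2 ± 35.9 CPM (SD, n = 8) (log2 fold change -1.03, SE 0.23, adjusted p = 0.00183). Ranges of these 3 did not overlap, where 1.64% of all genes did not. Plin4 (8.92 to 24.1 CPM against 0 to 14.4 CPM), Pparg (9.87 to 79.8 CPM against 7.91 to 25.1 CPM) and Ebf2 (43.3 to 97.02 CPM against 27.1 to 55.6 CPM) were higher in ASC2, at 2.19 (adjusted p = 0.00552), 1.59 (adjusted p = 0.0114) and 0.74 (adjusted p = 0.0223). Lpl (120.4 to 999 CPM against 411 to 1979 CPM) and Cebpb (0 to 4.35 CPM against 3.33 to 12.6 CPM) were lower, at -1.59 (adjusted p = 0.0228) and -2.05 (adjusted p = 0.0483), and these 5 overlapped. So 8 of 30 passed, 5 higher and 3 lower, against 9.09% of all genes (4.47% higher, 4.62% lower; median log2 fold change 0.040 over the 30 members tested and 0.012 over all genes tested). The macrophage sum was 1368 to 6512 CPM in ASC2 and 614 to 922 CPM in ASC1 without overlap, and its part in Cd36 and Plin2 was not tested. All 8 ASC1 libraries carried Xist and no ASC2 library passed the Xist limit, so population and sex transcripts cannot be told apart here. Of the other regulators 2 of 22 passed, Wnt10b at 4.58 (adjusted p = 6.06e-05) and Klf6 at 0.89 (adjusted p = 0.00148), and of the other lipid genes 6 of 31, 1 higher and 5 lower, with Mgll at 1.98 (adjusted p = 5.40e-04), Gpam at -2.22 (adjusted p = 3.79e-04) and Fads2 at -1.72 (adjusted p = 4.22e-05).

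In ovariectomized females, ASC2 had more of 5 of the 6 fatty acid synthesis genes and of Fabp5, and less Fabp4, Ebf1, Ebf2 and Zfp423, than ASC1. In all 14 of 30 members passed, 8 higher and 6 lower in ASC2, against 35.4% of all genes (22.5% higher, 12.9% lower; median log2 fold change -0.35 over the 30 members tested and 0.37 over all genes tested). Scd2 had 181, 529.7 and 712 CPM in ASC2 and 49.1, 49.5 and 59.7 CPM in ASC1 (log2 fold change 3.26, SE 0.41, adjusted p = 5.38e-09), and Fabp5 164, 262 and 337 CPM and 18.6, 32.00 and 45.9 CPM (log2 fold change 2.98, SE 0.65, adjusted p = 2.36e-04), each without overlap. Fabp4 was lower in every ASC2 library, 7.69, 34.6 and 57.4 CPM against 111, 248 and 319 CPM (log2 fold change -2.64, SE 0.43, adjusted p = 2.09e-06). Gata2, 2.29, 17.5 and 34.6 CPM against 0, 0 and 2.29 CPM, and Acaca, 10.3, 35.1 and 65.8 CPM against 0, 11.4 and 30.96 CPM, were higher at 3.39 (adjusted p = 0.0251) and 1.58 (adjusted p = 0.0157). Car3 had 0, 0 and 1.92 CPM against 0, 6.19 and 28.6 CPM, Zfp423 0, 5.20 and 17.1 CPM against 18.4, 19.4 and 24.8 CPM and Cebpd 0, 7.25 and 9.90 CPM against 13.8, 18.6 and 27.4 CPM, and they were lower at -4.05 (adjusted p = 2.88e-04), -1.82 (adjusted p = 0.0273) and -1.61 (adjusted p = 0.0429). The other 6, Acly, Fasn, Ebf2, Ebf1, Scd1 and Dgat1, had log2 fold changes of -1.36 to 1.47. Ranges did not overlap for 10 members and 21.8% of all genes. Of the 10 regulators tested, 4 were lower in ASC2 and 1 higher. The 3 ASC1 libraries are the ones that stood apart in fibroblast and macrophage markers. Mammary markers were called higher in ASC2 for 4 of 4 (Krt8 at 9.89 (adjusted p = 0.00196)), with sums of 9.88 to 1079 CPM in ASC2 and 0 in ASC1, and endothelial markers for 3 of 7 (Gpihbp1 at 6.76 (adjusted p = 4.17e-05)). Their part was not tested.

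Without ASC1 library L, the count was 6 and Car3 moved to -1.63 (adjusted p = 0.559), Zfp423 to -1.84 (adjusted p = 0.112), Cebpd to -1.17 (adjusted p = 0.354), Acaca to 1.48 (adjusted p = 0.136) and Gata2 to 6.56 (adjusted p = 0.0835). Without library N, Gata2 and Acaca missed at 3.07 (adjusted p = 0.0715) and 1.13 (adjusted p = 0.112), and without library P, Gata2, Zfp423 and Cebpd at 3.15 (adjusted p = 0.0584), -1.73 (adjusted p = 0.0596) and -1.69 (adjusted p = 0.0536). Scd2, Fabp5 and Fabp4 passed in each of these fits. Of the other regulators 9 of 22 passed, 3 higher and 6 lower, with Nr1h3 at -2.89 (adjusted p = 2.32e-08), Wnt10b at 2.77 (adjusted p = 0.03) and Klf9 at -1.98 (adjusted p = 2.64e-06). Of the other lipid genes 13 of 31 passed, 6 higher and 7 lower, with Acsl3 at 2.89 (adjusted p = 0.042), the acyltransferase Gpat3 at -2.73 (adjusted p = 0.0304) and Fads2 at 2.41 (adjusted p = 6.82e-05).

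Across the 13 comparisons, which share libraries, 9 of the 30 members tested passed in none in the fit of all 58 libraries. These were Cebpa, Zfp521, Prdm16, Elovl6 (fatty acid elongase), Agpat2 (an acyltransferase of triglyceride synthesis), Dgat2 (its last step), Pnpla2, Lipe (hormone-sensitive lipase) and Adipoq. Elovl6 averaged 40.9 CPM over the 58 libraries, Pnpla2 30.5, Agpat2 15.04, Lipe 6.95 and Dgat2 2.19 CPM. Pnpla2 had reads in 58 of 58 libraries and Lipe in 49. Dgat1, the alternative last step, averaged 35.6 CPM and passed in that fit between populations in ovariectomized females, at 1.34 (adjusted p = 0.0234). Without the libraries high in mammary markers, Dgat1 also passed for ovariectomy in ASC1, at -1.58 (adjusted p = 0.0292), Prdm16 for ovariectomy in ASC2, at -4.56 (adjusted p = 0.0257), and between populations in ovariectomized females, at -4.31 (adjusted p = 0.0313), and Pnpla2 between populations in control males.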

How the data were processed

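Per the labels and the study's methods, the authors trimmed reads with NGmerge, used STAR 2.7.10a for quality control, quantified transcripts with Salmon 1.9.0 on Gencode vM32 (GRCm39), summed reads with and without molecular identifiers, and left out libraries with few genes. They deposited 1 matrix of estimated counts per gene for 58 libraries. Of the counts above 0, 15.0% were not whole, and all were rounded to whole numbers before testing.

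Members were matched by Ensembl identifier. The filter of 5 reads or more, reached by over 3 libraries, kept 12464 of 56953 genes. edgeR 4.0.16 (R 4.3.3, limma 3.58.1) fitted a quasi-likelihood model with 1 mean per group to all 58 libraries after TMM scaling, with Benjamini-Hochberg adjustment over all genes tested and a threshold of 0.05. SE is the log2 fold change divided by the root of F. Library totals, from 106562 to 1421518 reads (median 682400), limit genes of few reads. The 41 members and the other gene lists were chosen with earlier results of these data known. Full values are given for 6 members, and per comparison at most 8 members called were named, those of the largest change among members with a mean of at least 5 CPM in a group compared; other genes named, and values that missed the threshold, were chosen after their values were seen. For each other list at most 3 genes of that mean were named per comparison, and some genes of these lists are not reported here and enter no sum or count.

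On simulated data for castration in ASC2, over 12464 genes, the fit recovered 183 of 200 genes changed 4-fold (91.5%), with 13 false calls. That change is larger than the change of any member called in this comparison. The counts were drawn around 1 mean per group, without libraries against the sex label, so the result does not measure how reliable the member calls are. Alternatives were other size factors, no count filter, DESeq2 1.42.0 and only the groups compared. Others were a block on the letter in the library title, removal of each single ovariectomized ASC1 library, and no libraries against the sex label. Leaving out libraries with mammary markers at 100 CPM or more, or under 200000 reads, was added after seeing the data. Outlying libraries were sought on log2(CPM + 1). No 2 libraries of a group agreed within counting noise.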

Additional observations from a re-analysis of the deposited data

Results flagged for a closer look

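Among 147 sets of a member and a group, 12 libraries lay farther from the rest of their group than Dixon's 95% limit on log2(CPM + 1), and 17 did with a pseudocount of 0.5 CPM. Chance flags about 1 in 20 such sets. Castrated ASC2 library K held 3 of them, with Plin2 at 2002 CPM, Scd2 at 88.5 CPM and Acaca at 7.26 CPM. In castrated ASC1, Cebpa was at 3.59 CPM in library I, Gata2 at 0 in library J and Scd1 at 232 CPM in library K. Ovariectomized ASC2 library N had Cebpd at 0, Lpin1 at 0 and Fabp4 at 7.69 CPM, and library P had Cd36 at 0. Ebf1 was at 6.56 CPM in control female ASC1 library A, and Ebf2 at 212 CPM in control male ASC2 library D. The effect of castration differed between ASC2 and ASC1 for Cd36 by 3.22 on the log2 scale, for Fabp5 by 2.19 and for Acly by -0.70, and the effects of castration and ovariectomy in ASC2 differed for Fabp4 by 2.16, each by the edgeR test of the difference.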

How the results depend on the processing

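Of 391 values of the 50 named member results under the alternatives, 389 kept their direction and 311 of these stayed past the threshold. With other size factors, and with DESeq2, all 50 stayed past it. The 2 that turned came without the libraries against the sex label, with Pparg at 1.62 for ovariectomy in ASC2 and at -2.17 between populations in control females. Only 38 named results could be fitted in that setting, of which 18 stayed past the threshold and 18 missed it. It removed no library from either population of ovariectomized females. That setting also moved the count of members called to 0 in both comparisons, to 0 for castration against ovariectomy in ASC2 and to 1 for the control sexes in ASC1. Castration in ASC1, castration between populations and the populations in castrated males could not be fitted without those libraries. Without the libraries high in mammary markers the counts were 3 for castration in ASC1, 9 for ovariectomy in ASC2, 2 between populations in control females, 5 for castration between populations and 5 for castration against ovariectomy. With no count filter they were 2 for castration in ASC1, 0 for the control sexes in ASC2 and 6 for castration against ovariectomy. In fits of only the groups compared they were 2 for castration in ASC1, 1 for castration in ASC2 and 0 for the control sexes in ASC2. DESeq2 gave 6 for castration against ovariectomy and 1 for the sexes between populations, and leaving out shallow libraries gave 3 between populations in control females. With each ovariectomized ASC1 library left out, the counts ran from 6 to 10 for ovariectomy in ASC1 and from 6 to 12 between populations in ovariectomized females. The cause was not tested. For most counts under the alternatives, here and above and below, the share of all genes called in the same fit is not given. A changed count can therefore not be read as particular to the members.

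With the letter of the library title as a replicate block the counts were 0 for the control sexes in ASC2, 3 between populations in control females and 5 in castrated males. It took 12 of 29 named results below the threshold, Acly and Lpin1 between the sexes, Lpin1 between populations in control males, Pparg and Zfp423 in control females, Pparg, Ebf2 and Cebpb in castrated males, and Car3, Gata2, Zfp423 and Cebpd in ovariectomized females. No label says that a letter marks a mouse or batch, and whether it pairs libraries is uncertain: same-letter correlations ran from -0.44 to 0.59 over 6 pairs of groups, with a median of 0.43 between control male and control female ASC1. All control libraries are lettered A to H and all castrated or ovariectomized ones I to P. The block was therefore fitted only for populations and sexes, and in the castration and ovariectomy comparisons letter and surgery cannot be told apart. Genes of a few reads per library, Adipoq and Dgat2 among them, are limited by depth.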
